A study of Homo sapiens with 6 samples.

Results

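The genes described here encode the factors that start, extend and end protein synthesis on cytosolic ribosomes, together with the kinases, exchange factors, binding proteins and methyltransferases that carry their names. They were chosen by symbol alone, as all probes whose single gene symbol begins with EIF1 to EIF6, EEF1 or EEF2, or reads ETF1, GSPT1, GSPT2 or ABCE1. This gave 55 genes, of which 1 lies on the Y chromosome and is not described. The remaining 54 are represented by 92 of the 14080 probes on the array, and 89 of these probes and all 54 genes were measured on all 6 arrays, among 8714 genes measured in the same way.

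GM00156 is a human cell line of the Coriell repository whose cell type the labels do not state. Cultures were kept for 10 h with or without 100 µg/ml of emetine, an alkaloid that halts ribosomes on mRNA, and actinomycin D at 5 µg/ml, which stops RNA synthesis, was then given to both. On each of 5 two-colour arrays mRNA of emetine-treated cells (Cy3) was set against mRNA of untreated cells (Cy5) from the same harvest, harvested 0 min, 10 min, 30 min, 1 h or 8 h after actinomycin D. A further array carried treated 0 min RNA in both channels (self-self). The label of the self-self array names no actinomycin D. For the 0 min array the channel names give treated against untreated RNA, while the description gives treated RNA on both sides. Each harvest has 1 array, nothing says that the harvests come from separate cultures, and with so few arrays all values have limited precision. The unit is a log2 ratio of the channels, zero being set on each slide by housekeeping genes. Which channel is the numerator is not stated, so values are given as positive or negative and no direction of change is named. Ratios carry no expression level, so the cell type could not be checked against its markers.

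Translation begins when eIF2, bound to GTP and the initiator tRNA, joins the small ribosomal subunit with eIF1, eIF1A, eIF3 and eIF5. The eIF4 factors bring in the capped mRNA and unwind it, eIF5 triggers GTP hydrolysis at the start codon, and eIF5B joins the large subunit. The eEF1 factors then deliver aminoacyl-tRNA and eEF2 moves the ribosome along, the step at which emetine acts. eRF1 (ETF1) and eRF3 (GSPT1 and GSPT2) release the protein, and ABCE1 splits the ribosome. Many mRNAs of the translation apparatus, ribosomal proteins above all, begin with a pyrimidine tract called 5′ TOP that ties their translation to growth signals.

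Over the 5 harvests translation factors lay more on the negative side than genes in general. The mean log ratio passed limma's test at an adjusted p of 0.05 for 28 of 54 genes, beside 62.4% of all genes tested. Of these 19 were negative, beside 25.3% of all genes, and 9 were positive, beside 37%. In percent of the 54 this is 35.2% negative and 16.7% positive. The median of the means was -0.15 for the translation factors and 0.14 for all genes. EIF5 was the most negative at -1.65 (SE 0.19, 5 arrays) and EIF2B1 the most positive at 1.16 (SE 0.14). Means of at least 1 in size were found, among those that passed, for 5 of the 54 genes, EIF5, EIF4EBP1, EEF2K, EIF4A2 and EIF2B1, beside 14.3% of all genes. No test compared the translation factors with the other genes. With every array centred on its median, 25 were negative and 8 positive, and the positive share of calls was 24.2% against 32.1% as deposited, while that of all genes went from 59.4% to 48.6%. When the self-self array entered the fit as the level to compare with, 0 of the 54 passed in limma, beside 1 of all 8714 genes. In that fit 8 of the 54 had an unadjusted p under 0.05, a count whose share over all genes is not given here. The adjusted p-values of the 28 ran from 0.157 to 0.649.

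The median over all genes was 0.01 on the self-self array and between 0.06 and 0.18 at the harvests, and the robust SD was 0.11 against values from 0.42 to 0.87. The highest gene stood at 1.90 on the 1 h array and between 5.94 and 7.14 at the other harvests, whereas the lowest gene stood at -7.56 at 1 h and between -4.65 and -2.22 at the others. The highest gene on the self-self array stood at 5.60. Without the 0 min array 26 translation factors passed, without the 1 h array 28, and without both 30. Of all 8714 genes 5382, 5310 and 5664 passed in these fits, against 5434 with all 5 arrays. Among the positive translation factors the 8 h array weighed most, as 5 passed without it against 9 with it. EIF1B, EIF2B5, EIF4B and EIF4ENIF1 were the positive genes that no longer passed. Positive calls among all genes went from 3228 to 2628 without the 8 h array, and to 2443 without the 30 min array.

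**Figure D1:**
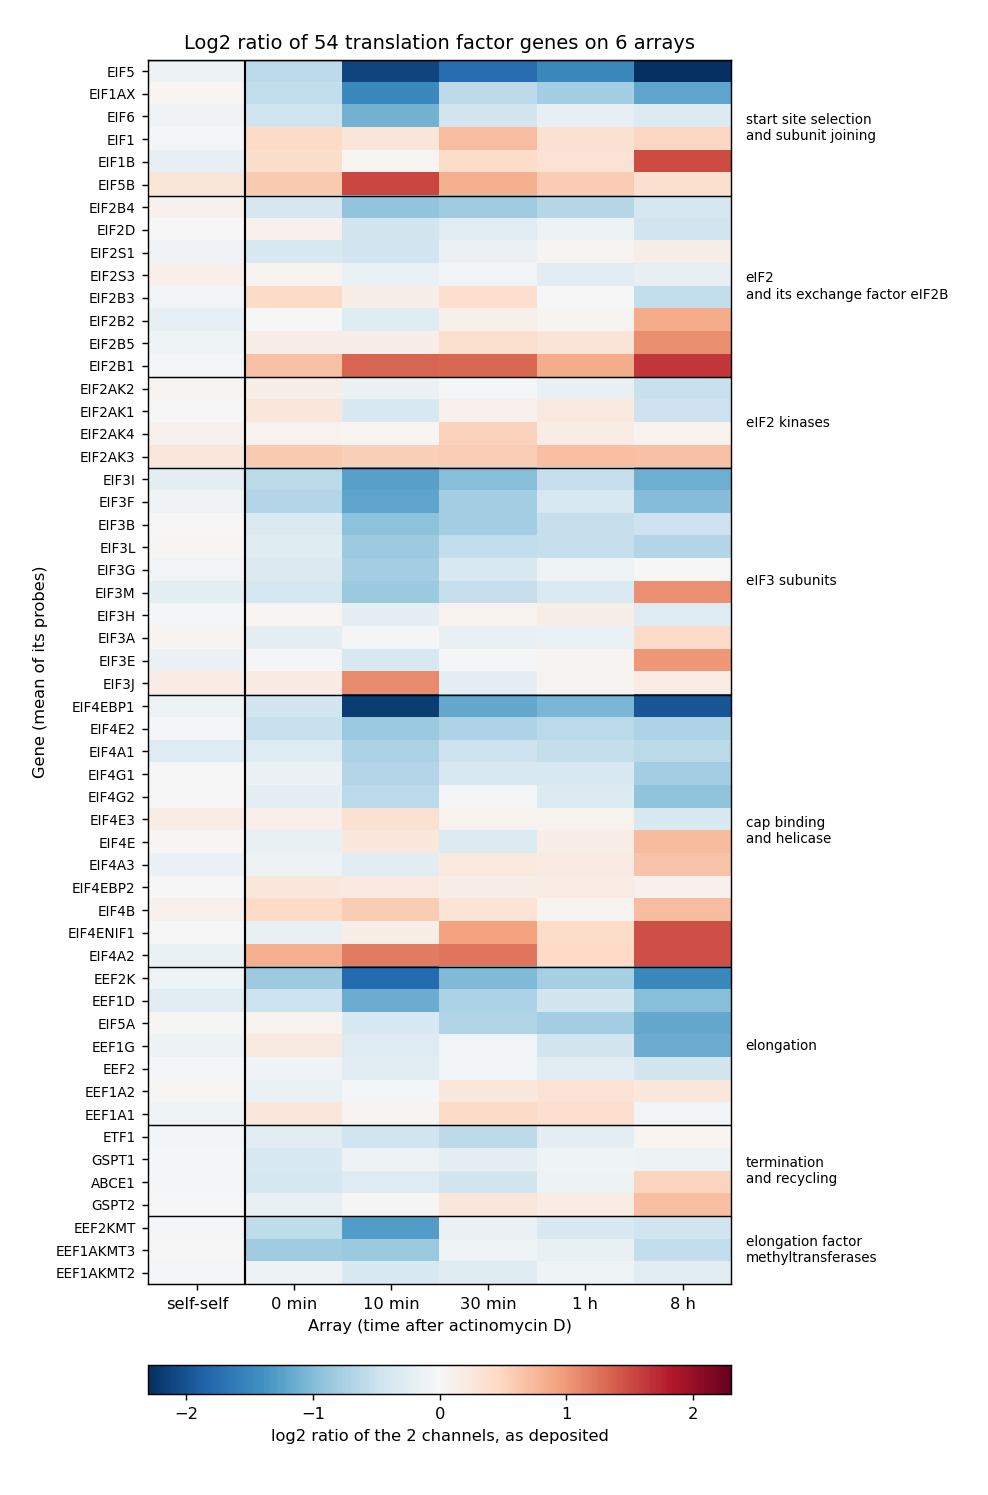
Log2 ratios of the 54 genes (rows, grouped by role, probes of a gene averaged) on the 6 arrays (columns), red for positive and blue for negative values. The self-self column is pale throughout, EIF5 and EIF4EBP1 are the deepest blue at 10 min and 8 h, and EIF2B1 and EIF4A2 are red at all 5 harvests.

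The factors that choose the start codon and join the subunits split evenly, with 3 of 6 positive and 3 of 6 negative, beside 37% and 25.3% of all genes. EIF5, which makes eIF2 hydrolyse its GTP at the start codon, read -0.11 on the self-self array and -0.60, -2.11, -1.76, -1.47 and -2.29 at the harvests, in the order 0 min, 10 min, 30 min, 1 h and 8 h that is kept throughout. All 5 values were negative, and the one at 0 min was nearest to zero. Its mean of -1.65 corresponds to a 3.13-fold ratio between the channels (limma adjusted p = 0.000467). EIF5B, the GTPase that joins the large subunit, lay on the opposite side with 0.61, 1.54, 0.81, 0.59 and 0.38 and a mean of 0.79 (SE 0.16, adjusted p = 0.00362). Its self-self value of 0.28 was the highest of all 54 genes, and at 8 h the harvest value was close to it. Within an array EIF5B exceeded EIF5 by 2.43 (SE 0.40) on average, at all 5 harvests, against 0.39 on the self-self array.

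EIF1 and EIF1AX act side by side on the small subunit, where they hold it open for scanning, and yet they stood on opposite sides. EIF1 read 0.47, 0.28, 0.72, 0.35 and 0.48 with a mean of 0.46 (SE 0.12, adjusted p = 0.00964). EIF1AX read -0.57, -1.48, -0.61, -0.77 and -1.21 with a mean of -0.93 (SE 0.16, adjusted p = 0.00171). The values of the genes did not overlap, and EIF1AX minus EIF1 ran from -1.76 to -1.04 over the 5 harvests, against 0.07 on the self-self array. The 2 probes of EIF1 share an accession but read 0.17 and 0.76 at 0 min, -0.10 and 0.66 at 10 min, and 0.30 and 1.13 at 30 min. EIF1AX has a near-identical copy that its probe may also detect. Without the 30 min array EIF1 did not pass.

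EIF1B, a close relative of EIF1, read 0.40, 0.04, 0.42, 0.34 and 1.5. The 8 h value stood far above the others and its mean was 0.54 (SE 0.14, adjusted p = 0.0101). EIF1B minus EIF1 was 0.08 (SE 0.24) on average but -0.15 without the 8 h array. EIF6, which keeps the subunits apart until the large one is mature, had a mean of -0.50 (SE 0.14, adjusted p = 0.0162) and its largest value, -1.09, at 10 min.

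eIF2 carries the initiator tRNA, and eIF2B is the 5-subunit exchange factor that reloads it with GTP. The eIF2 subunits on the array, EIF2S1 (alpha, the subunit that stress kinases phosphorylate) and EIF2S3 (gamma), had means of -0.15 and -0.12 that did not pass (adjusted p = 0.258 and 0.345). EIF2S3 minus EIF2S1 was 0.03 (SE 0.15), positive at 3 harvests and negative at 2. EIF2D, which can place initiator tRNA without eIF2, was at -0.23 and did not pass, but passed as negative with arrays centred or scaled and without the 0 min and 1 h arrays. EIF2S1 and EIF2S3 passed as negative with arrays scaled.

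The 5 subunits of eIF2B did not move as one. EIF2B1, the alpha subunit that holds the complex together as a dimer, read 0.68, 1.34, 1.32, 0.85 and 1.63 and was positive beyond the self-self range at all 5 harvests, with a self-self value of -0.04. Its mean of 1.16 (SE 0.14, adjusted p = 0.000496) was the highest among the translation factors. EIF2B5, the catalytic epsilon subunit, was near 0.15 at 0 and 10 min, at 0.37 and 0.30 at 30 min and 1 h, and at 1.07 at 8 h. The mean of 0.41 (SE 0.11, adjusted p = 0.0127) rested on the last harvest, since without the 8 h array EIF2B5 did not pass. EIF2B4, the delta subunit, read -0.40, -0.90, -0.82, -0.65 and -0.38 with a mean of -0.63 (SE 0.12, adjusted p = 0.00333). Its 2 probes were both negative from 0 min to 1 h and parted at 8 h, at -1.23 and 0.47. EIF2B2 and EIF2B3 had means of 0.15 and 0.08 and did not pass. They differed at 8 h, where EIF2B2 read 0.86 and EIF2B3 -0.56.

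Of the 4 kinases that phosphorylate eIF2 and thereby slow initiation, EIF2AK3 passed the test and the other 3 did not, beside 62.4% of all genes that passed. EIF2AK3, known as PERK and activated by stress in the endoplasmic reticulum, read 0.59, 0.54, 0.57, 0.70 and 0.68. These values spanned the narrowest range of the 28 genes that passed, and its mean was 0.62 (SE 0.10, adjusted p = 0.00162) beside a self-self value of 0.25. EIF2AK1, the heme-regulated kinase, EIF2AK2, the kinase PKR that senses double-stranded RNA, and EIF2AK4, the kinase GCN2 that senses uncharged tRNA, had means of -0.05, -0.14 and 0.18 that did not pass, although EIF2AK2 passed as negative with arrays scaled to equal spread (adjusted p = 0.0336).

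eIF3 is the large scaffold that binds the small subunit and bridges it to the eIF4 factors, and 10 of its subunits were measured. Of these 4 were negative, 0 positive and 6 did not pass, beside 25.3% negative and 37% positive among all genes, with a median of -0.26. EIF3I read -0.62, -1.25, -0.97, -0.53 and -1.13 with a mean of -0.90 (SE 0.14, adjusted p = 0.00117), and its self-self value was -0.20. EIF3F read -0.68, -1.21, -0.78, -0.36 and -1.0 with a mean of -0.81 (SE 0.14). EIF3B, which anchors the module that holds EIF3I and EIF3G, read -0.33, -0.94, -0.79, -0.53 and -0.47 with a mean of -0.61 (SE 0.13). EIF3L read -0.29, -0.84, -0.56, -0.54 and -0.67 with a mean of -0.58 (SE 0.12). All 4 were most negative at 10 min and beyond the self-self range at all 5 harvests.

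The other eIF3 subunits ranged from -0.31 for EIF3G to 0.26 for EIF3J. EIF3G passed as negative with arrays centred or scaled and without the 1 h array, alone or together with the 0 min array. EIF3M and EIF3E had their only large positive value at the last harvest. EIF3M read -0.41, -0.85, -0.53 and -0.34 up to 1 h and 1.04 at 8 h, and its mean of -0.22 did not pass, whereas it passed as negative without the 8 h array or with arrays scaled to equal spread. EIF3E read -0.03, -0.37, -0.04 and 0.07 and then 0.99. A further EIF3E probe of the same accession, left out of the average because its self-self entry was not measured, read -0.45 at 10 min and 0.97 at 8 h. EIF3A, the largest subunit, was at 0.44 at 8 h and between -0.23 and -0.03 before. EIF3J, a loosely bound subunit, stood out at 10 min alone with 1.09, against -0.22 to 0.18 at the other harvests.

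**Figure D2:**
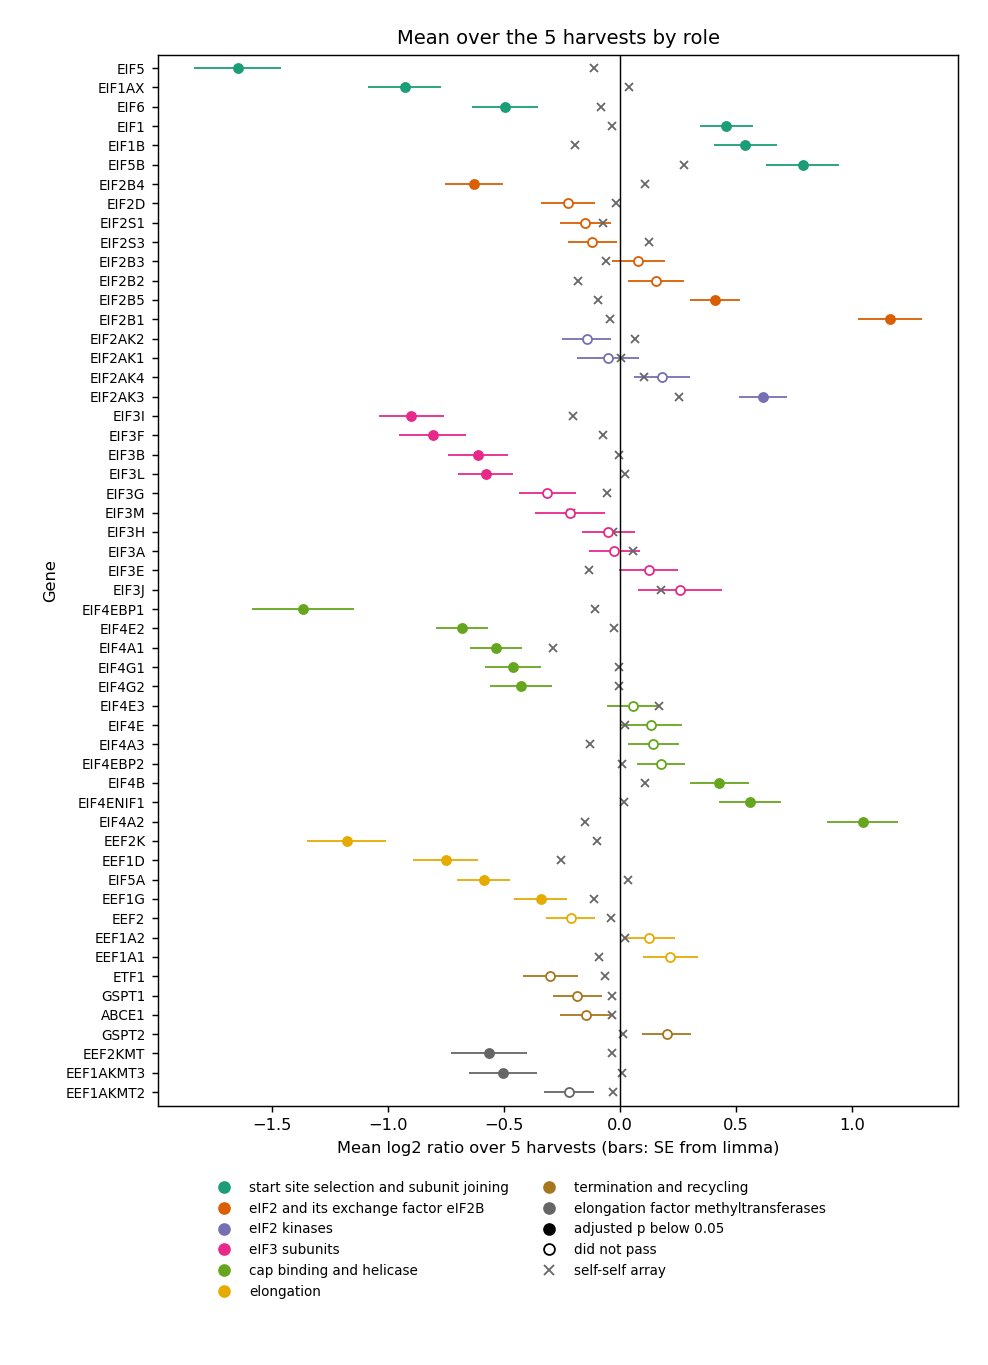
Mean log2 ratio over the 5 harvests (points) with its SE (bars) for each of the 54 genes, coloured by role, filled where the adjusted p was below 0.05, with the self-self value as a grey cross. eIF3, elongation and methyltransferase genes that passed are all on the negative side, whereas the start site, eIF2B and cap-binding groups hold filled points on both sides of 0.

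Among the 12 genes of cap binding and mRNA unwinding, 5 were negative and 3 positive, or 41.7% and 25.0% beside 25.3% and 37% of all genes. EIF4EBP1, the repressor that blocks eIF4E when mTOR is off, read -0.44, -2.18, -1.17, -1.06 and -1.97 with a mean of -1.36 (SE 0.22, adjusted p = 0.00138). Its relative EIF4EBP2 stayed between 0.09 and 0.25 at the harvests, within the self-self range, and its mean of 0.18 did not pass. EIF4E, the cap-binding protein that both hold, read -0.17, 0.26, -0.31, 0.15 and 0.73 and did not pass (mean 0.13, SE 0.13). EIF4EBP1 minus EIF4E was negative on every array, -0.27 at 0 min and -2.71 at 8 h. EIF4E2, a cap-binding relative that represses translation, read -0.50, -0.86, -0.70, -0.62 and -0.71 with a mean of -0.68 (SE 0.11, adjusted p = 0.00138). Its 2 probes were both negative at all 5 harvests, but at 10 min they read -1.47 and -0.25. EIF4E3 was at 0.06 and did not pass.

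The scaffold genes EIF4G1 and EIF4G2 stood together, at -0.46 (SE 0.12, adjusted p = 0.0109) and -0.43 (SE 0.13, adjusted p = 0.024). EIF4G2 is the shortened form that initiates without eIF4E. EIF4G1 read -0.14, -0.68, -0.34, -0.35 and -0.79. Its 2 probes differed, with 0.07 and -0.36 at 0 min, -0.65 and -0.05 at 1 h, and -1.14 and -0.44 at 8 h. EIF4G2 read -0.23, -0.63, -0.03, -0.32 and -0.92. The difference of the 2 genes was 0.04 (SE 0.08), positive at 3 harvests and negative at 2, and -0.03 without the 30 min array. Neither passed without the 8 h array, and EIF4G2 also failed to pass without the 10 min array. EIF4ENIF1, which carries eIF4E into the nucleus and into processing bodies, read -0.17, 0.15, 0.92, 0.42 and 1.48 with a mean of 0.56 (SE 0.13, adjusted p = 0.0075). Its value was higher at 30 min and 8 h than at the other harvests. EIF4B, a helper of the eIF4A helicase, read 0.46, 0.59, 0.32, 0.06 and 0.71 with a mean of 0.43 (SE 0.13, adjusted p = 0.0199). It no longer passed without the 10 min array, without the 8 h array or with arrays centred.

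The helicase paralogs EIF4A1 and EIF4A2, which unwind the mRNA leader and are interchangeable in many assays, lay on opposite sides. EIF4A1 read -0.30, -0.72, -0.47, -0.54 and -0.63 with a mean of -0.53 (SE 0.11, adjusted p = 0.00433). Its self-self value of -0.29 was the lowest of the 54 genes and the only one outside the middle 99% of genes on that array, close to its value at 0 min. EIF4A2 read 0.84, 1.19, 1.24, 0.46 and 1.49 with a mean of 1.04 (SE 0.15, adjusted p = 0.000932) and a self-self value of -0.15. EIF4A2 exceeded EIF4A1 at every harvest by 1.00 to 2.11, and by 0.14 on the self-self array. EIF4A3, the paralog that sits in the exon junction complex, had a mean of 0.14 and did not pass. The starts of the paralogs that split are shown because their upstream sequences can be compared directly. They run from 40 bases before to 20 bases after the RefSeq start (GRCh38.p14), with capitals for a run of 6 or more C and T letters beginning with C near the start. EIF4A1 lies at chr17:7572785-7572844 and EIF4A2 at chr3:186783537-186783596, both on the plus strand.
EIF4A1: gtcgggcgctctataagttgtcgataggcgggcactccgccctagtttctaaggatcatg
EIF4A2: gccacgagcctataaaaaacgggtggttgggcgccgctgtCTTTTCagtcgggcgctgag

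EIF4A1, EIF4A2, EIF2B5 and EEF1G each have 8 or 9 probes of a single accession, which shows the spread of repeated measurements of one gene within an array. The SD over the probes of EIF4A1 was 0.14, 0.25, 0.09, 0.15 and 0.03 at the 5 harvests, and its 8 values were all negative on all 6 arrays. For EIF4A2, 7 of the 8 probes measured on all arrays read 1.57 to 1.77 at 8 h while the remaining probe read -0.03. That probe was also the lowest at each of the other harvests and the highest on the self-self array. At 0 min it read 0.53 against 0.83 to 0.94 for the others. Its values of -0.04 at 1 h and -0.03 at 8 h lay inside the self-self range. The other EIF4A2 probes are numbered in the same regular steps as those of EIF4A1 and EEF1G, and this probe lies outside those steps. Whether the regularly numbered probes are copies of a single spot was not tested, so their closeness may not be that of separate probes. If they are copies, the EIF4A2 average rests mainly on a single spot. The deviating probe alone read 0.53, 0.93, 0.46, -0.04 and -0.03 at the 5 harvests. Without the deviating probe EIF4A2 exceeded EIF4A1 by 1.67 in place of 1.58. The difference with that probe alone is not given here. The 9 probes of EIF2B5 ran from 0.78 to 1.57 at 8 h, all positive. They too are numbered in such steps, except the probe at 1.57, which read highest on all 6 arrays.

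**Figure D3:**
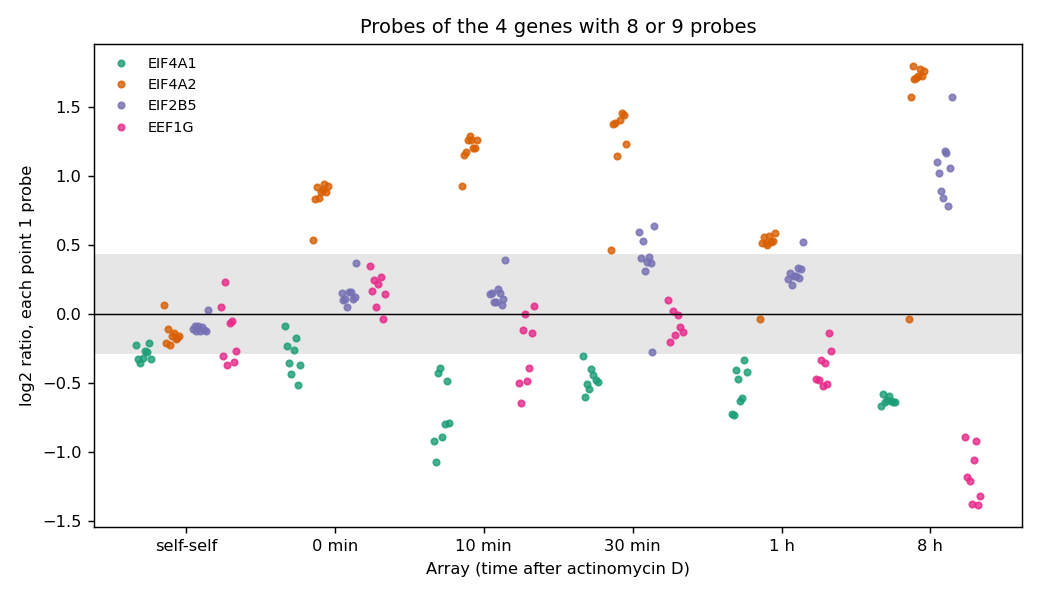
Log2 ratio of every measured probe (points) of EIF4A1, EIF4A2, EIF2B5 and EEF1G on the 6 arrays, and a grey band from -0.28 to 0.43 for the middle 99% of genes on the self-self array. All EIF4A2 probes sit above all EIF4A1 probes at the 5 harvests, a single EIF4A2 probe lies far below the others at 8 h, and all EEF1G probes lie below the band at 8 h, some of them also at 10 min and 1 h.

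In elongation 4 of 7 genes were negative, 0 were positive and 3 did not pass, beside 25.3% negative and 37% positive among all genes. EEF2K, the kinase that inactivates eEF2, read -0.83, -1.80, -1.02, -0.76 and -1.48 with a mean of -1.18 (SE 0.17, adjusted p = 0.000877). Both of its probes were negative at all 5 harvests, although at 30 min they read -1.71 and -0.33. EEF2, the translocase it acts on, read -0.07, -0.25, -0.06, -0.24 and -0.43 and did not pass (mean -0.21, adjusted p = 0.112), though it passed as negative with arrays centred or scaled. EEF2K minus EEF2 was -0.97 (SE 0.17) on average and negative at all 5 harvests. EEF1D, a subunit of the exchange factor of eEF1A, read -0.50, -1.14, -0.72, -0.42 and -0.98 with a mean of -0.75 (SE 0.14, adjusted p = 0.00246) and a self-self value of -0.25.

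EIF5A, which helps ribosomes through difficult peptide bonds, was lower at each later harvest, with 0.08, -0.35, -0.70, -0.80 and -1.17 and a mean of -0.59 (SE 0.11, adjusted p = 0.0029). EEF1G, another exchange factor subunit, was also lowest at 8 h but did not fall at each harvest, with 0.21, -0.30, -0.07, -0.42 and -1.14. Its mean was -0.34 (SE 0.11, adjusted p = 0.0306), and it did not pass without the 8 h array, without the 1 h array or with repeated values kept. Over the 7 EEF1G probes measured on all arrays the 8 h values ran from -1.37 to -0.89, below the range of the same probes at every earlier harvest. EEF1A1 and EEF1A2, the near-identical carriers of aminoacyl-tRNA that probes may not tell apart, had means of 0.22 and 0.13, did not pass, and differed by -0.09 (SE 0.11).

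Of the 3 methyltransferases that modify elongation factors, 2 were negative and 1 did not pass, beside 25.3% negative among all genes. EEF2KMT, which modifies eEF2, read -0.58, -1.28, -0.14, -0.36 and -0.46 with a mean of -0.57 (SE 0.16, adjusted p = 0.0171). EEF1AKMT3, which modifies eEF1A, read -0.82, -0.86, -0.10, -0.18 and -0.57 with a mean of -0.51 (SE 0.15, adjusted p = 0.0174). Neither passed without the 0 min array, and EEF1AKMT3 also failed to pass without the 10 min array. EEF1AKMT2 at -0.22 did not pass except with arrays centred or scaled.

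Termination and recycling was the role in which 0 of 4 genes passed, beside 62.4% of all genes. All 4 showed a value outside the self-self range at some harvest, while 9.94% of all genes showed none. ETF1, which reads the stop codon, read -0.26, -0.46, -0.60, -0.23 and 0.05 (mean -0.30, SE 0.12, adjusted p = 0.0543). GSPT1, its GTPase partner, was at -0.35, -0.13, -0.23, -0.09 and -0.12, and GSPT1 minus ETF1 was 0.12 (SE 0.11). GSPT2, the paralog of GSPT1, reached 0.70 at 8 h and was between -0.16 and 0.26 before. ABCE1 read -0.41, -0.30, -0.42 and -0.11 up to 1 h and 0.52 at 8 h. ETF1 and GSPT1 passed as negative with arrays centred or scaled, ABCE1 with arrays scaled, and ETF1 also without the 8 h array.

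The pair comparison asks whether genes that work together, descend from one gene or, as EIF5A and EIF5, share only a name differed within an array, which does not depend on where zero was set. In all, 12 pairs were tested, of which 7 had the same sign at all 5 harvests. These were EIF4A2 over EIF4A1, EIF5B and EIF5A over EIF5, EIF1AX under EIF1, EIF4EBP1 and EIF4E2 under EIF4E, and EEF2K under EEF2. Each had an exact sign-flip permutation p of 0.0625, two-sided, which is the smallest that 5 arrays allow, and an adjusted p of 0.107 over the 12 pairs, so none could pass 0.05. The mean differences of these 7 pairs ran from 0.82 to 2.43 in size. EIF5B minus EIF5 was the largest and EIF4E2 minus EIF4E, at -0.82 (SE 0.21), the smallest. EIF5A exceeded EIF5 by 1.06 (SE 0.20).

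**Figure D4:**
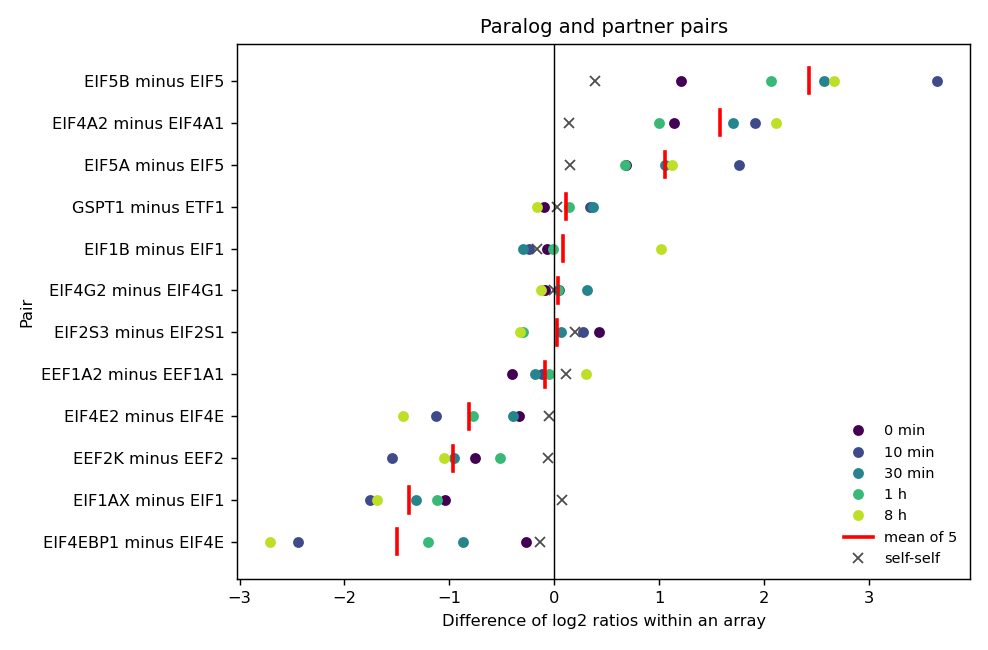
Difference of log2 ratios within an array for the 12 pairs (rows), a point for each harvest, a red bar for the mean of the 5 and a cross for the self-self array. For 7 pairs all 5 points lie on one side of 0, and for the other 5 pairs the points fall on both sides.

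The comparison of single harvests with the self-self array asks which genes left the noise of labelling and hybridisation, and no test goes with it. On the self-self array the middle 99% of all genes ran from -0.28 to 0.43. At 0 min 27 of 54 translation factors lay outside it, beside 41.8% of all genes, with 7 above and 20 below beside 20.4% and 21.4%. At 10 min 34 lay outside beside 69.7%, with 6 above and 28 below beside 36% and 33.7%. At 30 min 29 lay outside beside 65.8%, with 8 above and 21 below beside 36% and 29.8%. Fewest, 22, lay outside at 1 h beside 48.5%, with 4 above and 18 below beside 21.8% and 26.7%. At 8 h 42 lay outside, or 77.8% beside 65.6% of all genes, with 16 above and 26 below beside 36.7% and 28.9%. The positive side held more translation factors at 8 h than at any earlier harvest.

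Below the range at all 5 harvests were 12 genes, or 22.2% beside 13.1% of all genes. They were EIF5, EIF4EBP1, EEF2K, EIF1AX, EIF3I, EIF3F, EEF1D, EIF4E2, EIF2B4, EIF3B, EIF3L and EIF4A1. On the self-self array itself EIF4A1 was already below the range, at -0.29 beside -0.30 at 0 min. Above the range at all 5 harvests were EIF2B1, EIF4A2 and EIF2AK3, or 5.56% beside 12.2%. EIF4A2 was above it by the average of its probes, a single one of which lay inside it at 1 h and 8 h. EEF1A2, EIF2S3 and EIF4EBP2 stayed inside the range throughout, or 5.56% beside 9.94% of all genes. Beyond the range on both sides at different harvests were 5 genes, EIF3M, EIF3E, ABCE1, EIF4E and EIF2B3, or 9.26% beside 7.38% of all genes. In EIF3M, EIF3E, ABCE1 and EIF4E the positive value was that of 8 h, and in EIF2B3 the 8 h value was the negative one. A highest harvest value at 8 h was found in 18 of the 54 translation factors, near the share of 33.4% among all genes.

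**Figure D5:**
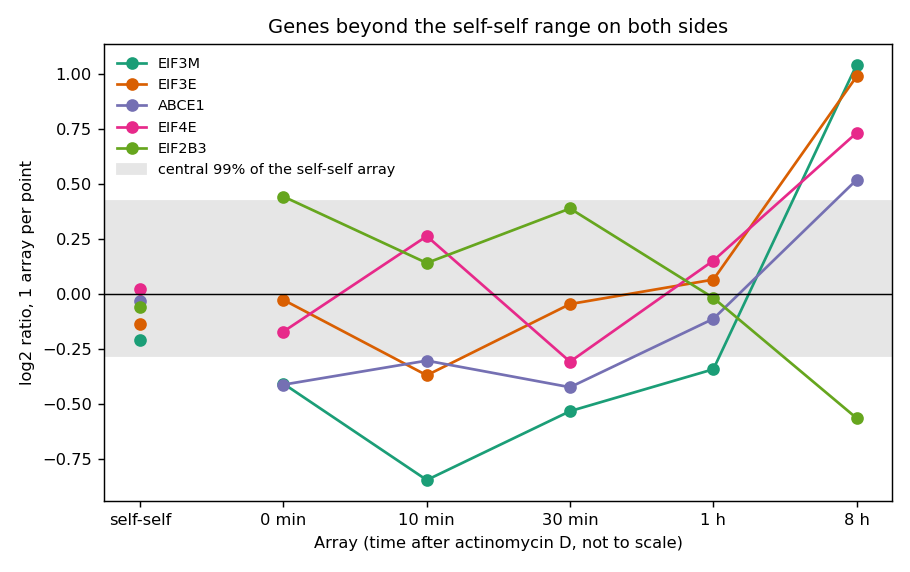
Log2 ratio on the self-self array and at the 5 harvests for the 5 genes that left the self-self range (grey band, -0.28 to 0.43) on both sides, 1 array per point. EIF3M goes from -0.85 at 10 min to 1.04 at 8 h, and EIF2B3 runs the other way to -0.56 at 8 h.

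The slope over harvest time asks which ratios moved after transcription was stopped. In limma 0 of 54 translation factors passed, beside 0.0115% of all genes, which does not show that the ratios stayed constant, and 12 had an unadjusted p under 0.05, beside 15%. Of these 12, 9 sloped to the positive and 3 to the negative side, beside 11.3% and 3.71% of all genes. The lowest adjusted p was 0.122, for EIF4ENIF1 at 0.28 per doubling of the time term, followed by EIF3M at 0.30 (adjusted p = 0.129) and EEF1G at -0.22 (adjusted p = 0.132). EIF5A had a slope of -0.21 (adjusted p = 0.138). With time in linear minutes EIF3M and EIF1B passed (adjusted p = 0.0258 and 0.0494), beside 384 of all 8714 genes. Without the 1 h array EIF4ENIF1 and EIF3M passed (adjusted p = 0.0385 and 0.0438), beside 516 of all genes. Without both the 0 min and 1 h arrays EIF3M passed (adjusted p = 0.0402), beside 227 of all genes. Without the 8 h array the lowest adjusted p was 1.

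Translation factors known as 5′ TOP mRNAs were looked at beside the ribosomal proteins, whose mRNAs are of this kind. The TOP starts of EEF1A1 and EEF2 are shown because the tract, in capitals, begins at the first transcribed base, and that of EIF3F because its tract is the longest among the 43 genes with a sequence. The windows lie at chr6:73521013-73521072 (minus strand), chr19:3985444-3985503 (minus strand) and chr11:7987297-7987356 (plus strand).
EEF1A1: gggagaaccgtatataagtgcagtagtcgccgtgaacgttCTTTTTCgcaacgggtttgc
EEF2: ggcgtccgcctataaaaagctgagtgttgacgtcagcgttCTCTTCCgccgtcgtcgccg
EIF3F: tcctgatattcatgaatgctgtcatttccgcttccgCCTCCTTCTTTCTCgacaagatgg

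Of the 9 measured TOP members 3 were negative (EIF3F, EEF1D and EEF1G), 1 was positive (EIF4B) and 5 did not pass, with a median of -0.05. The other 45 translation factors had 16 negative and 8 positive genes and a median of -0.15. In percent this is 33.3% negative and 11.1% positive for the TOP members, and 35.6% and 17.8% for the other factors. Among all genes 25.3% were negative and 37% positive, with a median of 0.14. Of 53 cytosolic ribosomal protein genes 34 were negative and 7 positive, with a median of -0.55, or 64.2% negative against 33.3% of the TOP members, a difference that was not tested. The medians of both sets on the self-self array were -0.15 for ribosomal proteins and -0.08 for TOP members.

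Other genes of translation control were taken from lists of regulators and of mitochondrial factors. Of 31 regulators and helpers, 11 were positive, 10 negative and 10 did not pass, with a median of 0.06. These shares, 35.5% positive and 32.3% negative, lie near the 37% and 25.3% of all genes. ATF4, the transcription factor made when eIF2 is phosphorylated, was at 1.25 (SE 0.14, adjusted p = 0.000458) and MKNK1, a kinase of eIF4E, at 1.03 (SE 0.14). NCBP2, a subunit of the nuclear cap-binding complex, was at -1.01 (SE 0.13) and GCN1, which activates EIF2AK4 on stalled ribosomes, at -0.96 (SE 0.13). Of 8 mitochondrial translation factors 4 were positive and 1 negative, or 50.0% and 12.5% beside 37% and 25.3% of all genes, with a median of 0.29. The ribosome recycling factor MRRF was at 1.12 (SE 0.14) and the elongation factor GUF1 at 0.87 (SE 0.15), while TUFM, the mitochondrial counterpart of eEF1A, was at -0.81 (SE 0.13).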

How the data were processed

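Two-colour arrays measured mRNA of GM00156 cells in 6 groups of 1 array each. Per the labels' protocols, the authors averaged spot intensities after background subtraction, divided the sample by the reference, normalised ratios within each slide on housekeeping genes and discarded ratios of quality below 0.5. The deposited values are log2 ratios, with the base read from the data, since 99.5% to 100% of an array's entries, raised from base 2, fell on steps of 1 in 10000 with a tolerance of 0.05 steps. Image software is not given in the sources used here. Because zero rests on housekeeping genes, a shift of those genes would move a whole array.

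On every array 333 to 534 probes carry 1 identical value. Such entries were taken as unmeasured, leaving 13091 probes measured on all 6 arrays. Probes with 1 gene symbol (11304, of which 11282 matched the gene table; 446 had several and 2330 none) were averaged per gene. For all 8714 genes, the mean of the 5 harvests and the slope on log2(1 + min / 10), centred, were estimated with limma 3.58.1 (R 4.3.3), leaving 3 residual degrees of freedom, with two-sided tests and Benjamini-Hochberg adjustment over all genes. SEs and p-values thus measure scatter of single arrays about a fitted line. The fit was tested on simulated data. Pairs were tested by exact sign-flip permutation over the 5 harvests.

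The members, roles, pairs and lists were chosen with earlier results of these data known. All members may be named; values on every array are given for those that passed with a mean of at least 0.5 in size, for pair members and for the 3 with the smallest slope p-values, and for some others chosen after their values were seen. Of the regulators and the mitochondrial factors, up to 4 with the largest means were eligible. Promoter windows are RefSeq sequences of GRCh38.p14, matched by symbol for 43 of the 54 genes.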

Additional observations from a re-analysis of the deposited data

Results flagged for a closer look

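Genes whose harvests lay beyond the self-self range on opposite sides were picked out because their ratio changed side between harvests. With 1 array per harvest this difference between harvests was not tested for any of them on its own. EIF3M went from -0.85 at 10 min to 1.04 at 8 h, EIF3E from -0.37 at 10 min to 0.99 at 8 h, ABCE1 from -0.42 at 30 min to 0.52 at 8 h, and EIF4E from -0.31 at 30 min to 0.73 at 8 h. EIF2B3 went the other way, from 0.44 at 0 min to -0.56 at 8 h.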

How the results depend on the processing

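The count of translation factors that passed for the mean was 28 and lay between 23 and 28 when 1 array was left out, with 5 to 9 positive and 17 to 19 negative, the lowest positive count being that without the 8 h array. It was 27 with repeated values kept, 33 with arrays centred (1 call lost, EIF4B, and 6 gained, all negative) and 39 with arrays scaled to equal spread, of which 30 were negative. Among all 8714 genes the count was 5434, between 4204 and 5382 with 1 array left out, 5194 with arrays centred and 5782 with arrays scaled. In the fit on probes 54 of 89 probes passed, 23 positive and 31 negative, a count of probes and not of genes. Among all probes in that fit, at most 13091, 8011 passed, 4582 positive and 3429 negative. With the self-self array as the level 0 translation factors passed, 0 positive and 0 negative, beside 1 of all 8714 genes. There a single array stands for the level and is assumed to vary like the harvests. Of the 28 calls 18 were kept in all 5 fits that leave out 1 array, and none of the 28 was called with the opposite sign in the alternatives fitted on genes.

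For the slope the count of 0 became 2, both positive, with linear minutes, 1, positive, without the 0 min and 1 h arrays (added after seeing the data), and 0 to 2 when 1 array was left out. Among all 8714 genes the count of 1 became 384, 227 and 0 to 516 in the same fits. At 0, 10 and 30 min, 1 h and 8 h the counts of translation factors outside the self-self range became 0, 1, 0, 1 and 2 after scaling to equal spread. Such scaling widens the self-self array to the harvests' spread by construction. With a limit of 1 log2 unit they were 0, 13, 5, 2 and 14. The shares of all genes beyond these other limits are not given here, so whether these counts are many or few cannot be told. Leaving out 1 array moved EIF1B minus EIF1 between -0.15 and 0.18, EIF4G2 minus EIF4G1 between -0.033 and 0.0771 and EIF2S3 minus EIF2S1 between -0.0695 and 0.1175; the other 9 pairs kept their sign. The cause of these changes was not tested unless stated. Arrays could not be paired between harvests because each group has 1 array and the labels give no replicate numbers.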

Other observations

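The stretch from 250 bases before to 50 bases after the RefSeq start was searched for short motifs on both strands in the 43 translation factor genes with a promoter entry. The ETS core CCGGAAG was found in 9 of them (20.9%), beside 15.7% of all genes tested and 10.7% of all promoters. The NRF1 motif was found in 6 (14.0%), beside 9.93% and 6.3%. The CCAAT box was found in 34.9% and the TATA box TATAAA in 6.98%, beside 36.5% and 7.58% of all genes tested. A run of 6 or more pyrimidines beginning with C within 10 bases of the start was found in 12 genes (27.9%), beside 19.2% of all genes tested, and in 3 of the 5 TOP members with an entry. These are matches of letters and were not tested against the ratios.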
